A study of Mus musculus with 9 samples.

Results

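Mitotic cell cycle genes were followed in whole mouse liver by a list of 10 genes: Cdk1, Ccnb1, Ccnb2, Ccna2, Plk1, Aurkb, Bub1, Birc5, Top2a and Mki67. Members were the array probe sets that carry 1 of these gene symbols and no other; where a gene had several, the brightest on average was to be kept. Of the 10 genes, 9 were measured, each by a single probe set, among 22180 genes in all. Ccnb1, which encodes cyclin B1, had no such probe set and has no value here.

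The livers came from 9 female mice, 1 Affymetrix whole-transcript array per mouse, in 3 groups of 3. Double KO mice had a liver-specific knockout of SMRT and of NCoR, SMRT KO mice a liver-specific knockout of SMRT alone, and control mice carried floxed alleles of both genes without deletion. SMRT and NCoR are corepressors that bring histone deacetylase complexes to nuclear receptors and other transcription factors. All were euthyroid and 7 to 9 weeks old, with a 129SV/B6 mixed background. Each array took 200 ng of liver RNA. The labels do not say which Cre driver was used or what NCoR alleles the SMRT KO mice carried, and the deleted genes themselves were not analysed here, so the genotypes were not checked against the arrays. Hepatocyte markers averaged 12.0 to 12.1 in the double KO livers, 12.2 to 12.3 in the SMRT KO livers and 12.2 to 12.3 in the control livers on the log2 scale. Of 9 such markers, 4 were lower without overlap in double KO than in control livers, as were 1609 of 22180 genes. Against SMRT KO livers 5 were, as were 1378 of 22180 genes.

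Entry into mitosis is driven by the kinase CDK1 bound to cyclin A or cyclin B. The genes of this programme are switched on together late in the cell cycle, mainly through the NF-Y factor at CCAAT boxes and the MuvB complex, with B-MYB or FOXM1, at cell cycle homology regions. In resting cells the DREAM complex holds the same genes down. Most hepatocytes of a young adult liver are out of the cycle, and the programme is best known there from regeneration after loss of tissue.

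RefSeq promoter sequence (GRCm38.p6) was available for 8 of the 10 genes, Aurkb and Ccna2 being the exceptions. The 250 bases before the annotated start were searched on both strands for the CCAAT box and for the cell cycle homology region, written TTTGAA or as the variant TTCGAA. Matches of different motifs did not overlap in these 8 windows, and TTCGAA, a palindrome, was counted once. The windows of Cdk1, Ccnb2, Mki67 and Top2a held both kinds of motif, and these 4 are shown because they hold the letters of both motifs. Capitals mark the motifs, and a capital run that reads as the reverse complement is a match on the opposite strand.
Cdk1: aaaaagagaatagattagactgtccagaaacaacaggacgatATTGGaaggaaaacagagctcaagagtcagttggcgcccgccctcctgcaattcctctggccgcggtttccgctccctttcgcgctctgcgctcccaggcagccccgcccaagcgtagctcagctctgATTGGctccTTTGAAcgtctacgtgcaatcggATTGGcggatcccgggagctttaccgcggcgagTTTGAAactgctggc
Ccnb2: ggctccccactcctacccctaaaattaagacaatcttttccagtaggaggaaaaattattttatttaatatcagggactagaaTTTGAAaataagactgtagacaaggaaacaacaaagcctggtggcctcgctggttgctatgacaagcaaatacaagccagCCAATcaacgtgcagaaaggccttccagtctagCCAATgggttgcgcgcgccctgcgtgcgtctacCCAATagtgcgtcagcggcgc
Mki67: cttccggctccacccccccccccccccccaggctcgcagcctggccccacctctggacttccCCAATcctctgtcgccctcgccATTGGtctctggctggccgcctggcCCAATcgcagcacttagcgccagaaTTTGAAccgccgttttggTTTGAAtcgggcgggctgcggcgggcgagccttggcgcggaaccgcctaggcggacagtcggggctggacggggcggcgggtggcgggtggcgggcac
Top2a: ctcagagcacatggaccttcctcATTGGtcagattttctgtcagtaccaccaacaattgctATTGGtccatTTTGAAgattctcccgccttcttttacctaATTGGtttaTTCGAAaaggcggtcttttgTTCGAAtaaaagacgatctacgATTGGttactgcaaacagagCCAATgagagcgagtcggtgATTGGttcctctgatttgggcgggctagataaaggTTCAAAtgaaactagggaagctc

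The Cdk1 window (chr10:69352913-69353162, minus strand) held 3 CCAAT boxes and 2 homology regions, 1 of them close to the start. The Ccnb2 window (chr9:70421555-70421804, minus strand) held 3 CCAAT boxes, all on the strand of the gene, and 1 homology region, which lay farther from the start than the boxes. The Mki67 window (chr7:135716380-135716629, minus strand) held 3 CCAAT boxes and 2 homology regions, and the Top2a window (chr11:99024190-99024439, minus strand) had 6 CCAAT boxes and 4 homology regions, the largest number among the 8. At least 1 CCAAT box was found in 7 of the 8 windows, against 33.8% of 32851 promoters in the same table, and 2 or more in 6 of the 8, against 10.1%. A CCAAT box together with a homology region was found in 4 of the 8, against 6.02%. The windows of Ccnb1 and Bub1 held 2 CCAAT boxes each and that of Plk1 held 1, while that of Birc5 held neither motif. An E2F-type site, written GCGGGAA, was in none of the 8 windows and in 3.82% of all promoters. These are matches of letters, and no binding was measured.

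**Figure D1:**
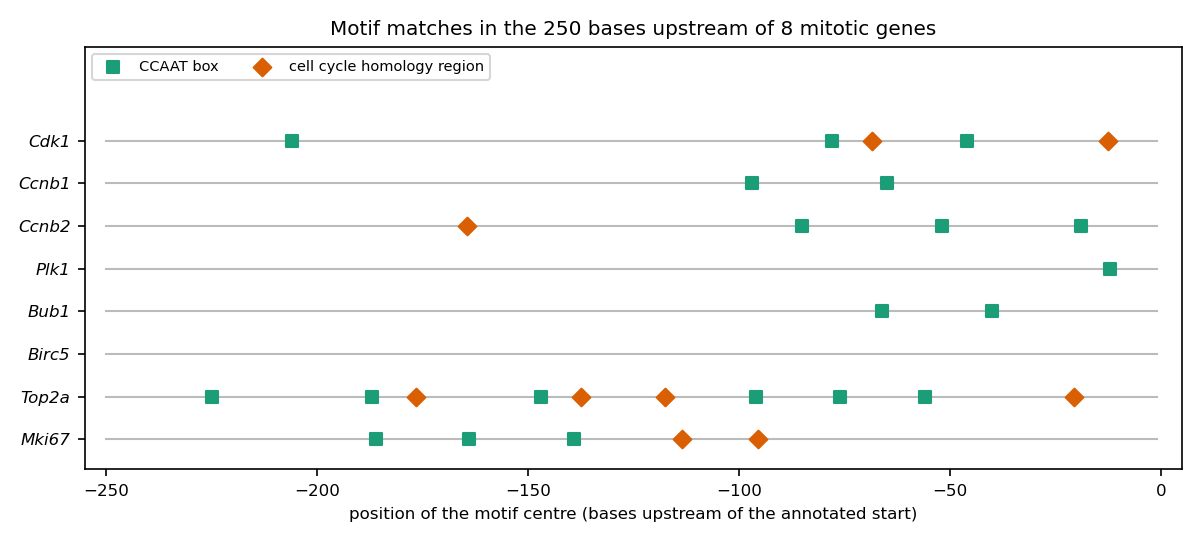
Position of each motif match in the 250 bases before the annotated start of the 8 genes with promoter sequence, 1 line per gene, with the start at the right. Squares are CCAAT boxes and diamonds are cell cycle homology regions; Cdk1, Ccnb2, Top2a and Mki67 carry both, and Birc5 carries neither.

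All levels below are log2 values made by RMA, a method that normalizes the arrays to a common distribution, so a shift common to most genes would be lost. Array medians lay between 5.96 and 6.02, and correlations between arrays were 0.987 to 0.992 within groups and 0.983 to 0.989 between groups. As a rough floor for probe sets of silent genes, 1394 olfactory and vomeronasal receptor genes had a 95th percentile between 5.91 and 6.22 over the 9 arrays; probe sets differ in brightness, so this is a guide and not a detection limit. Cdk1, Ccnb2, Aurkb and Mki67 were above it on all 9 arrays, and Plk1 on 6, all control arrays being under it for Plk1. Ccna2 and Birc5 were above it on 1 array each, and Bub1 and Top2a on none. In whole liver, a larger number of cycling cells and more of a transcript per cell cannot be told apart.

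In SMRT KO livers, 6 of the 9 measured genes (Cdk1, Ccnb2, Plk1, Aurkb, Birc5 and Top2a) had all 3 values above all 3 control values, with differences of 0.33 to 0.52 on the log2 scale. Non-overlap in this direction was seen for 3.80% of all genes. The same 6 genes had an unadjusted limma p under 0.05, as did 2.66% of all genes in the higher direction. None of the 9 passed the limma test after Benjamini-Hochberg adjustment, which only 0.00451% of all genes (1 of 22180) passed in this comparison; without control mouse 2 that number of genes was 23, none of them a member. The median difference of the 9 was 0.40, against 0.00 over all genes, and 8 of the 9 lay above 0, against 50.4% of all genes.

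In double KO livers the median difference from control was 0.10, and 7 of the 9 differences were above 0. Ccnb2 and Plk1 did not overlap the control values, against 7.73% of all genes higher and not overlapping, and Plk1 had an unadjusted limma p under 0.05, against 5.34% of all genes. None passed after adjustment, while 0.843% of all genes (187) did. Against the SMRT KO livers, 8 of the 9 double KO means were lower, with a median difference of -0.24. In that comparison 2 genes, Cdk1 and Aurkb, had an unadjusted limma p under 0.05 in the lower direction, against 4.81% of all genes, and none was free of overlap, against 6.21%. None passed after adjustment, while 1.19% of all genes (263) did. The 3 comparisons share mice, so their values for a gene are not independent of each other.

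**Figure D2:**
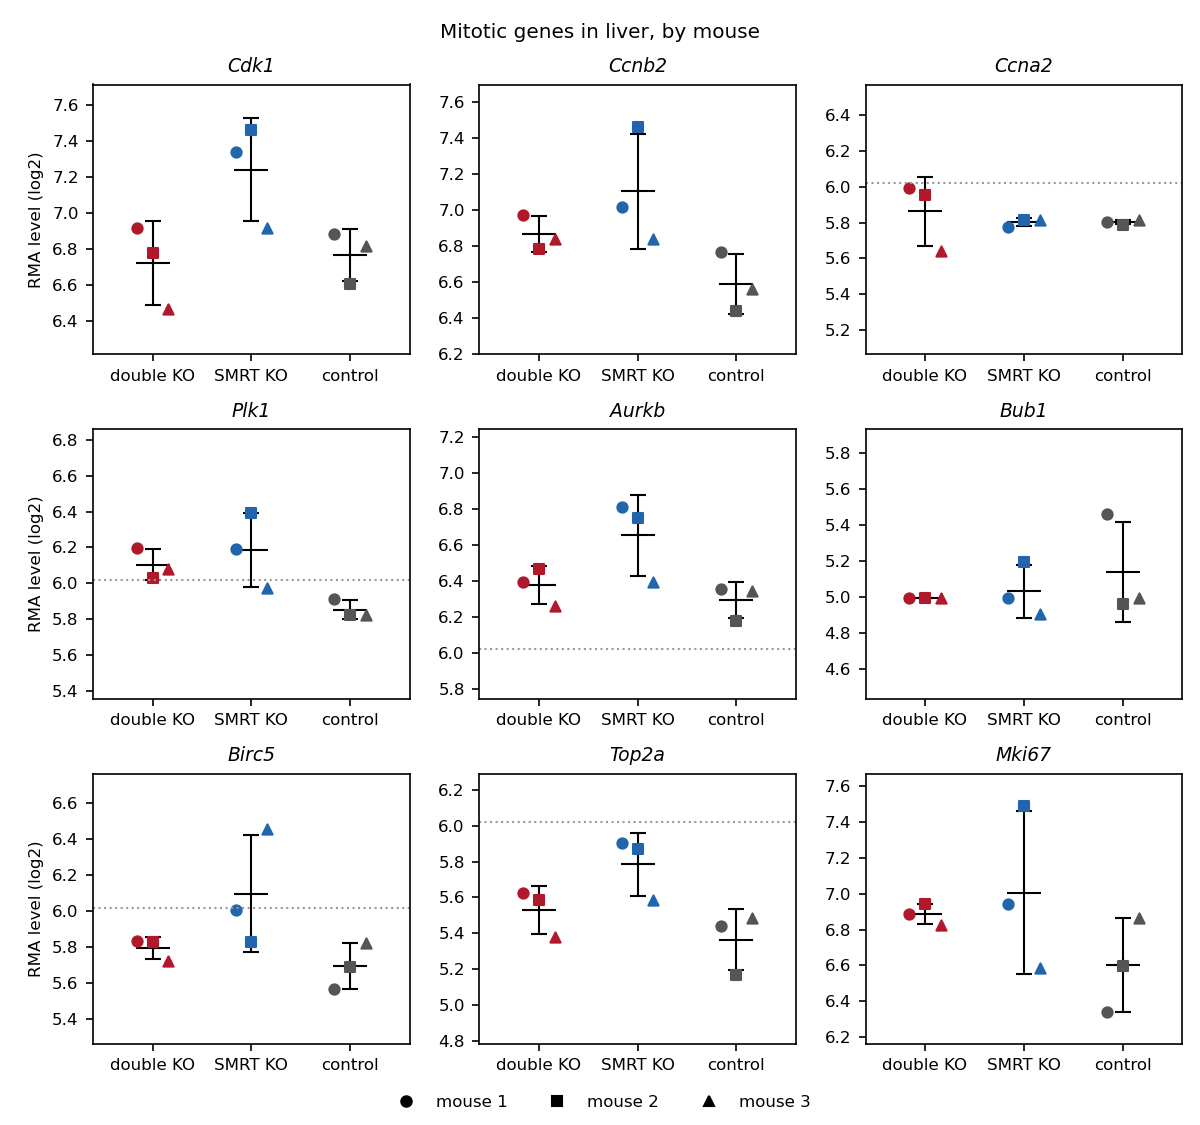
RMA level (log2) of the 9 measured genes in each mouse. Points are mice, with the symbol giving the replicate number, a horizontal line is the group mean and bars are the SD of 3 mice; every panel spans the same range on the log2 scale. The dotted line, where it falls in the panel, is the 95th percentile of receptor genes averaged over arrays. The SMRT KO points of Cdk1, Ccnb2, Plk1, Aurkb, Birc5 and Top2a all lie above the control points.

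CDK1 and its cyclins came first. Cdk1, the kinase that starts mitosis, had levels of 6.92, 6.78 and 6.47 in double KO livers, 7.34, 7.47 and 6.92 in SMRT KO livers and 6.88, 6.61 and 6.82 in control livers. SMRT KO mice 1 and 2 stood well above the 6 other-genotype mice, whereas SMRT KO mouse 3 sat just above the highest control and level with the highest double KO mouse. Cdk1 averaged 7.24 ± 0.29 in SMRT KO and 6.77 ± 0.15 in control livers (SD, n = 3 each), a difference of 0.47 ± 0.16 (SE) or 1.39-fold, with a limma adjusted p of 0.753. Between double KO and SMRT KO livers the difference was -0.52 ± 0.16 (limma adjusted p = 0.230), the lowest of the 9 in that comparison, and between double KO and control livers it was -0.05 (limma adjusted p = 0.955).

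Ccnb2 encodes cyclin B2, a partner of CDK1. It measured 6.98, 6.79 and 6.84 in double KO livers, 7.02, 7.46 and 6.84 in SMRT KO livers and 6.77, 6.44 and 6.56 in control livers. Every mouse of either knockout group was above every control mouse, the closest being double KO mouse 2 and control mouse 1. The difference of SMRT KO from control livers, 0.52 ± 0.15 (SE) or 1.43-fold, was the highest of the 9 (limma adjusted p = 0.654), and 0.34 without SMRT KO mouse 2. That of double KO from control livers was 0.28 (limma adjusted p = 0.570), and that of double KO from SMRT KO livers was -0.24 (limma adjusted p = 0.673).

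Ccna2, for cyclin A2, which acts in S phase and at the entry to mitosis, had 5.99, 5.95 and 5.64 in double KO livers, 5.78, 5.82 and 5.82 in SMRT KO livers and 5.80, 5.79 and 5.82 in control livers. The SMRT KO and control values fell in the same narrow range near the floor, with a difference of 0.00 and a 95% interval of -0.20 to 0.20. Double KO mice held both the highest values and the lowest, and that group's mean lay 0.06 above the control mean (limma adjusted p = 0.877). A level near the floor limits what these values can show.

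The kinases and checkpoint genes of mitosis came next. Plk1, a kinase needed for spindle assembly and for exit from mitosis, had 6.20, 6.03 and 6.08 in double KO livers, 6.19, 6.39 and 5.98 in SMRT KO livers and 5.92, 5.82 and 5.82 in control livers. Both knockout groups lay wholly above the control group and overlapped each other. The control values were all under the receptor floor, which limits what the differences from control can show. The difference from control was 0.25 ± 0.10 (SE) in double KO livers (limma adjusted p = 0.414) and 0.33 ± 0.10 in SMRT KO livers (limma adjusted p = 0.704). Plk1 was the single member with an unadjusted p under 0.05 in both.

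Aurkb encodes the kinase of the chromosomal passenger complex, which corrects faulty spindle attachments. It measured 6.40, 6.47 and 6.26 in double KO livers, 6.81, 6.75 and 6.40 in SMRT KO livers and 6.36, 6.17 and 6.34 in control livers. As with Cdk1, SMRT KO mice 1 and 2 were high, and SMRT KO mouse 3 lay among the double KO mice and just above the controls. The difference of SMRT KO from control livers was 0.36 ± 0.11 (limma adjusted p = 0.727), and that of double KO from SMRT KO livers was -0.28 ± 0.11 (limma adjusted p = 0.423).

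Birc5 encodes survivin, another subunit of the passenger complex. Its levels were 5.84, 5.83 and 5.73 in double KO livers, 6.01, 5.83 and 6.46 in SMRT KO livers and 5.57, 5.69 and 5.82 in control livers. Here SMRT KO mouse 3 was the highest of all 9, whereas it was the lowest of its group for Cdk1, Ccnb2, Plk1, Aurkb, Bub1, Top2a and Mki67. SMRT KO mouse 2 exceeded the highest control mouse only at the third decimal. The difference of SMRT KO from control livers was 0.40 ± 0.14 (limma adjusted p = 0.775), and 0.22 without SMRT KO mouse 3.

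Bub1, a kinase of the spindle checkpoint, measured 5.00 in all 3 double KO livers, 5.00, 5.19 and 4.91 in SMRT KO livers and 5.46, 4.96 and 5.00 in control livers. Exactly the same value stood on 5 of the 9 arrays, and every array was below the floor. A value shared between arrays is common in this table, where 43.8% of probe sets have 1 value on 2 or more arrays. Bub1 had the lowest difference of the 9 between SMRT KO and control livers, -0.11 (limma adjusted p = 0.948), which rested on control mouse 1 and was 0.054 without it.

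Top2a and Mki67 act on the chromosomes themselves. Top2a encodes topoisomerase II alpha, which untangles sister chromatids, and had 5.62, 5.58 and 5.38 in double KO livers, 5.90, 5.87 and 5.58 in SMRT KO livers and 5.44, 5.17 and 5.48 in control livers. Its SMRT KO values lay above all control values, with SMRT KO mouse 3 again the lowest of its group. The difference was 0.42 ± 0.12 (SE) or 1.34-fold (limma adjusted p = 0.598), which ranked 203 of 22180 genes by p in that comparison, the best rank among the 9, although no array reached the floor.

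Mki67 encodes the proliferation antigen Ki-67, which coats mitotic chromosomes. It had 6.89, 6.94 and 6.83 in double KO livers, 6.94, 7.49 and 6.59 in SMRT KO livers and 6.34, 6.60 and 6.87 in control livers. SMRT KO mouse 2 was the highest and control mouse 1 the lowest, and all 3 groups overlapped. The 3 SMRT KO mice spanned the widest range of any group among the 9 genes, with an SD of 0.45, and the difference from control, 0.40 ± 0.21, had a limma adjusted p of 0.864. It was 0.16 without SMRT KO mouse 2 and 0.61 without SMRT KO mouse 3. In double KO livers the mice were close together, with an SD of 0.06, and the difference from control was 0.28 ± 0.21 (limma adjusted p = 0.709), and 0.15 without control mouse 1.

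**Figure D3:**
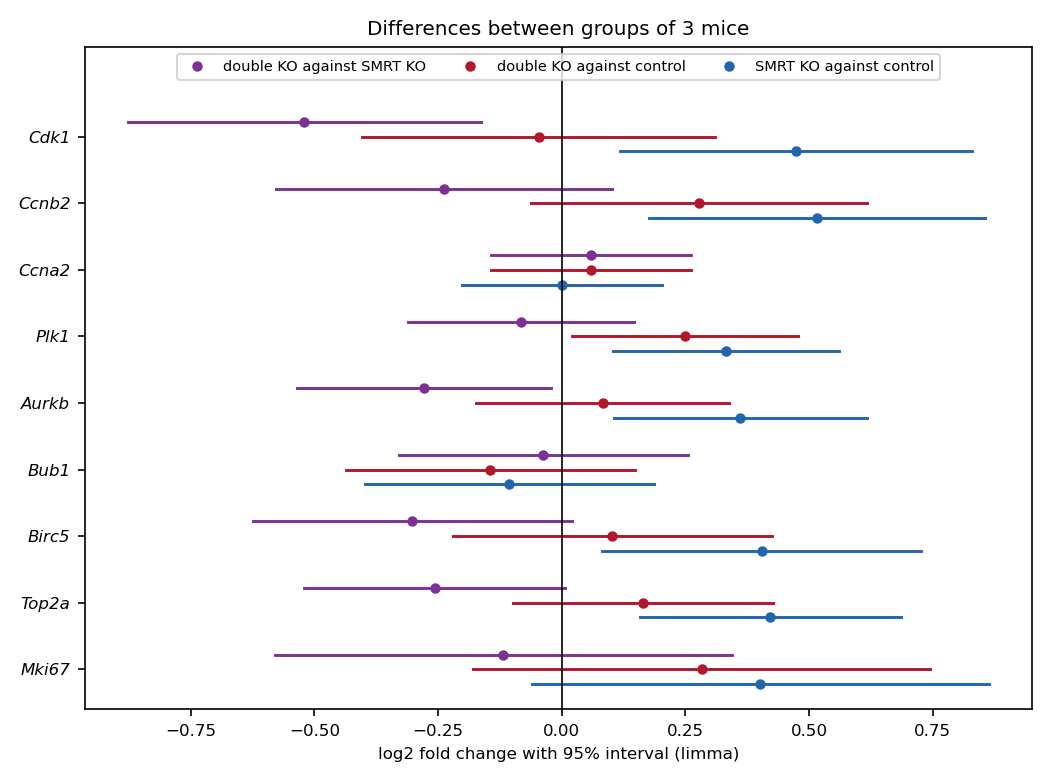
Log2 fold change of each measured gene with its 95% interval from limma, for double KO against SMRT KO, double KO against control and SMRT KO against control (3 mice per group). The unadjusted interval lies wholly above 0 for 6 genes in SMRT KO against control and for Plk1 in double KO against control, and wholly below 0 for Cdk1 and Aurkb in double KO against SMRT KO.

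Averaged over the 9 genes, the level per mouse was 6.20, 6.15 and 6.02 in double KO livers, 6.33, 6.47 and 6.17 in SMRT KO livers and 6.06, 5.92 and 6.06 in control livers. SMRT KO mice 1 and 2 were the highest, SMRT KO mouse 3 lay among the double KO mice, and control mouse 2 was the lowest. SMRT KO mouse 2 had the highest value of all 9 mice for 4 genes, and control mouse 2 the lowest for 4. Without SMRT KO mouse 2, the median difference of SMRT KO from control livers was 0.31, and that of double KO from SMRT KO livers was -0.061 in place of -0.24.

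Over the 9 arrays, the 36 pairs of genes had a median Pearson correlation of 0.26, ranging from -0.55 (Bub1 with Birc5) to 0.96 (Aurkb with Top2a). The points share the array and the group differences. Ccnb2 with Plk1 reached 0.956, Cdk1 with Aurkb 0.929 and Cdk1 with Top2a 0.900. With the group means removed, these 3 pairs still gave 0.934, 0.889 and 0.921, so the genes of each pair also differed together between mice of the same group. Pairs of Ccnb2 or Plk1 with Cdk1, Aurkb or Top2a then gave 0.573 (Ccnb2 with Aurkb) to 0.794 (Cdk1 with Plk1). Without SMRT KO mouse 2, and with group means kept, such pairs gave 0.450 (Cdk1 with Plk1) to 0.812 (Ccnb2 with Top2a). Birc5 ran the other way within groups, with -0.855 against Plk1 and -0.772 against Ccnb2. Ccna2 and Bub1 had no correlation above 0.3 with any other member before group means were removed. With them removed, Bub1 ranged from -0.638 with Birc5 to 0.772 with Ccnb2, and Ccna2 from 0.019 with Bub1 to 0.563 with Cdk1.

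Among 13147 other genes above the floor, the 5 with the highest correlation with the per-mouse mean of the 9 were Il12rb1 (r = 0.969), an interleukin receptor subunit, Lrmp (0.955), a lymphoid membrane protein, Topbp1 (0.937), a scaffold of DNA replication and damage signalling, Cngb1 (0.936), a cation channel subunit, and Ttl (0.934), a tubulin tyrosine ligase. Spearman's rho was 0.962, 0.883, 0.828, 0.827 and 0.932 in the same order. They were picked as the highest of a long list on 9 arrays, so the values describe likeness and carry no test. Without SMRT KO mouse 2 and control mouse 2, the mice farthest from the median, the correlations were 0.900, 0.879, 0.785, 0.845 and 0.894. Some of these genes varied little between mice. Topbp1 ranged from 7.81 to 7.95, and exactly the same value stood on several arrays for Cngb1 (7.00) and for Ttl (6.71). Il12rb1 had 6.31, 6.30 and 6.26 in double KO livers, 6.39, 6.50 and 6.35 in SMRT KO livers and 6.30, 6.19 and 6.25 in control livers. Its values were chosen for following the 9 genes, so their order between groups is no separate result.

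The wider programme was described by 4 further lists. Of 50 other mitotic genes, such as kinesins, kinetochore proteins and spindle factors, 48 were measured. On each array 14 to 23 of the 48 were above the receptor floor, so more lay under it than above, which limits what their values can show. In SMRT KO livers 41 of the 48 had a mean above control, against 50.4% of all genes, with a median difference of 0.10. None was called after adjustment, and 4 had an unadjusted limma p under 0.05 in the higher direction and 0 in the lower, against 2.66% and 3.34% of all genes. Without SMRT KO mouse 2 the median was 0.040, and without SMRT KO mouse 3 it was 0.17. The number at an unadjusted p under 0.05 in either direction was 1 without SMRT KO mouse 1, SMRT KO mouse 2 or control mouse 1, 2 without double KO mouse 1 or 3, and 12 without SMRT KO mouse 3. The highest difference was that of Pttg1, which encodes securin, the guard of sister chromatid cohesion. Pttg1 had 7.06, 6.71 and 6.60 in double KO livers, 7.12, 7.17 and 6.55 in SMRT KO livers and 6.56, 6.68 and 6.64 in control livers, so that SMRT KO mouse 3 fell below every control mouse. Its difference of SMRT KO from control livers was 0.32 (limma adjusted p = 0.865), and the lowest was that of Cks2, a CDK-binding subunit, at -0.04. By mouse, 22 of the 48 genes were highest in SMRT KO mouse 2 and 11 in SMRT KO mouse 1, while 14 were lowest in SMRT KO mouse 3.

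In double KO livers, 35 of the 48 had a mean above control, against 51.3% of all genes. The median of the 48 was 0.06, and none was called after adjustment by limma. Of these, 2 had an unadjusted p under 0.05 in the higher direction, against 5.34% of all genes, and 1 in the lower, against 5.43%. Ect2, an exchange factor that starts the cleavage furrow, had 7.45, 7.34 and 7.58 in double KO livers, 7.17, 7.29 and 6.75 in SMRT KO livers and 7.09, 6.82 and 6.95 in control livers. The double KO mice lay above all others, with a difference from control of 0.50 (limma adjusted p = 0.185). Of all genes, 7.73% were higher than control without overlap, and 1673 of 22180 were higher than SMRT KO livers without overlap. Cks2 was again the lowest at -0.20. Against SMRT KO livers, the double KO differences ranged from -0.46 for Spc25, a kinetochore subunit, to 0.39 for Ect2, with a median of -0.04, and none was called by limma, while 3 had an unadjusted p under 0.05 in the lower direction, against 4.81% of all genes, and 2 in the higher, against 5.66%.

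Genes of DNA replication and S phase, which act before mitosis, were measured for 33 of 36. In SMRT KO livers 23 of them lay above control, with a median of 0.06 and a range from -0.08 for Prim1, a primase subunit, to 0.26 for Pole, a replicative polymerase, which was 0.051 as the mean over all its probe sets. None was called by limma, and 3 had an unadjusted p under 0.05 in the higher direction and 0 in the lower, against 2.66% and 3.34% of all genes. In double KO livers the median was 0.00, with 17 above control. None was called by limma, and 2 had an unadjusted p under 0.05 in the higher direction and 3 in the lower, against 5.34% and 5.43% of all genes. The range ran from -0.53 for Prim1 (limma adjusted p = 0.145) to 0.41 for Rrm2, a subunit of ribonucleotide reductase (limma adjusted p = 0.439), which was 0.19 as the mean over all its probe sets. Mcm10, an initiation factor, had 6.72, 6.70 and 6.95 in double KO livers, 7.17, 7.28 and 7.54 in SMRT KO livers and 7.04, 7.21 and 7.33 in control livers. The double KO mice lay below all others, and the difference from SMRT KO livers was -0.54 (limma adjusted p = 0.0705), which was not called. Of all genes, 6.21% were lower without overlap in that comparison, and 1609 of 22180 were so in double KO against control livers. The highest difference of the list in that comparison was that of Rrm2, at 0.20. Of the 33 genes, 8 lay above SMRT KO livers in double KO livers, with a median difference of -0.07. None was called by limma, and 4 had an unadjusted p under 0.05 in the lower direction and 1 in the higher, against 4.81% and 5.66% of all genes.

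Of 23 G1 cyclins and regulators of the E2F and DREAM system, 22 were measured. E2f3, an activating E2F factor, had 7.43, 7.51 and 7.19 in double KO livers, 7.00, 6.76 and 6.90 in SMRT KO livers and 6.63, 6.80 and 6.62 in control livers. All double KO mice were above all others. Higher double KO values without overlap were seen for 7.73% of all genes against control and for 1673 of 22180 against SMRT KO livers. E2f3 rose by 0.69 ± 0.10 (SE), 1.62-fold, in double KO against control livers (limma adjusted p = 0.0176). The call was lost without double KO mouse 1 or 2 or control mouse 1 or 3, with limma adjusted p-values up to 0.0847. It was the only one of the 22 called, against 0.843% of all genes, and 15 of the 22 lay above control with a median of 0.04. An unadjusted limma p under 0.05 was found for 3 in the higher direction and 0 in the lower, against 5.34% and 5.43% of all genes. E2f8, a repressing E2F factor, had the highest difference of the list, 0.87, but overlapped between groups, with 7.44, 7.47 and 8.34 in double KO livers against 6.68, 7.46 and 6.49 in control livers (limma adjusted p = 0.469). The lowest was Ccnd2 at -0.17.

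In SMRT KO livers none of the 22 was called by limma and 1 had an unadjusted p under 0.05 in the higher direction and 0 in the lower, against 2.66% and 3.34% of all genes. The range was from -0.19 for Rbl2, a pocket protein of the DREAM complex, to 0.36 for Ccnd1, which encodes cyclin D1 and has a high level in liver. Ccnd1 had 11.03, 10.84 and 10.70 in double KO livers, 10.43, 10.96 and 10.32 in SMRT KO livers and 10.48, 10.22 and 9.93 in control livers. All its double KO values lay above all control values, as for 7.73% of all genes. SMRT KO mouse 2, the highest mouse for the mitotic genes, was also the highest of its group for Ccnd1, and without it the difference of SMRT KO from control livers was 0.16. Without control mouse 3 it was 0.22. Between double KO and SMRT KO livers the range was -0.30 for Cdc25a to 0.98 for E2f8, with 12 of 22 above 0 and none called by limma. Of the 22, 3 had an unadjusted p under 0.05 in the higher direction, against 5.66% of all genes, and 1 in the lower, against 4.81%.

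Of 14 CDK inhibitors and growth arrest genes, 12 were measured. Of these, 1 was called in double KO against control livers, against 0.843% of all genes, and 2 in double KO against SMRT KO livers, against 1.19%. Gadd45b, a stress-induced growth arrest gene, had 7.73, 8.11 and 8.46 in double KO livers, 7.12, 6.37 and 7.07 in SMRT KO livers and 6.59, 6.75 and 6.63 in control livers. All 3 double KO mice were above all others. Without overlap, 7.73% of all genes were higher in double KO than in control livers, and 1673 of 22180 higher than in SMRT KO livers. Gadd45b rose 2.72-fold in double KO against control livers, by 1.45 ± 0.22 (SE) on the log2 scale (limma adjusted p = 0.0195), and by 1.25 ± 0.22 against SMRT KO livers (limma adjusted p = 0.0309). The first call was lost without double KO mouse 2 or 3 or control mouse 1 or 3 (limma adjusted p up to 0.0942). The second was lost in 10 of 18 other settings (limma adjusted p up to 0.124), among them leaving out any mouse other than double KO mouse 1.

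Cdkn2c, an INK4-family inhibitor of the cyclin D kinases, had 7.56, 7.65 and 7.54 in double KO livers, 7.01, 7.11 and 7.22 in SMRT KO livers and 7.27, 7.29 and 7.25 in control livers. The 3 groups did not overlap, with double KO highest and SMRT KO lowest. In double KO against SMRT KO livers, 1673 of 22180 genes were higher without overlap. In double KO against control livers 1714 were higher in this way, and in SMRT KO against control livers 967 were lower. Cdkn2c rose by 0.47 ± 0.07 in double KO against SMRT KO livers (limma adjusted p = 0.0147), a call lost without SMRT KO mouse 1 or 2 or double KO mouse 2 (limma adjusted p up to 0.0785). Its difference of 0.31 from control livers was not called (limma adjusted p = 0.0962). In SMRT KO against control livers none of the 12 was called by limma while 0 had an unadjusted p under 0.05 in the higher direction and 1 in the lower, against 2.66% and 3.34% of all genes. Cdkn2c had the lowest difference, -0.16 (limma adjusted p = 0.831), and Gadd45g, another member of the Gadd45 family, the highest, 0.26. The lowest in double KO livers was Wee1, the kinase that holds CDK1 inactive, at -0.26 against control, and Gadd45g at -0.31 against SMRT KO livers.

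**Figure D4:**
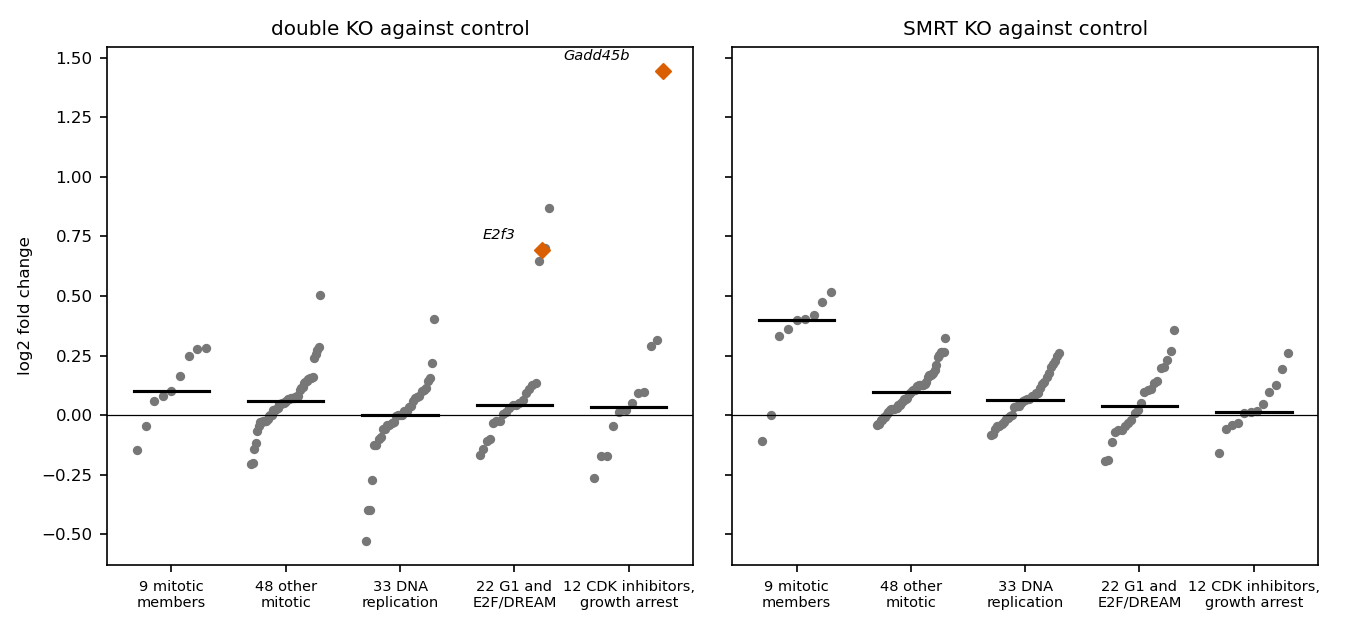
Log2 fold change of every measured gene in the 5 lists, for double KO against control (left) and SMRT KO against control (right). Points are genes, the horizontal line is the list's median and diamonds are genes with a limma adjusted p under 0.05, which are E2f3 and Gadd45b in double KO against control and none in SMRT KO against control. The median of the 9 mitotic genes is 0.40 on the right and 0.10 on the left.

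**Figure D5:**
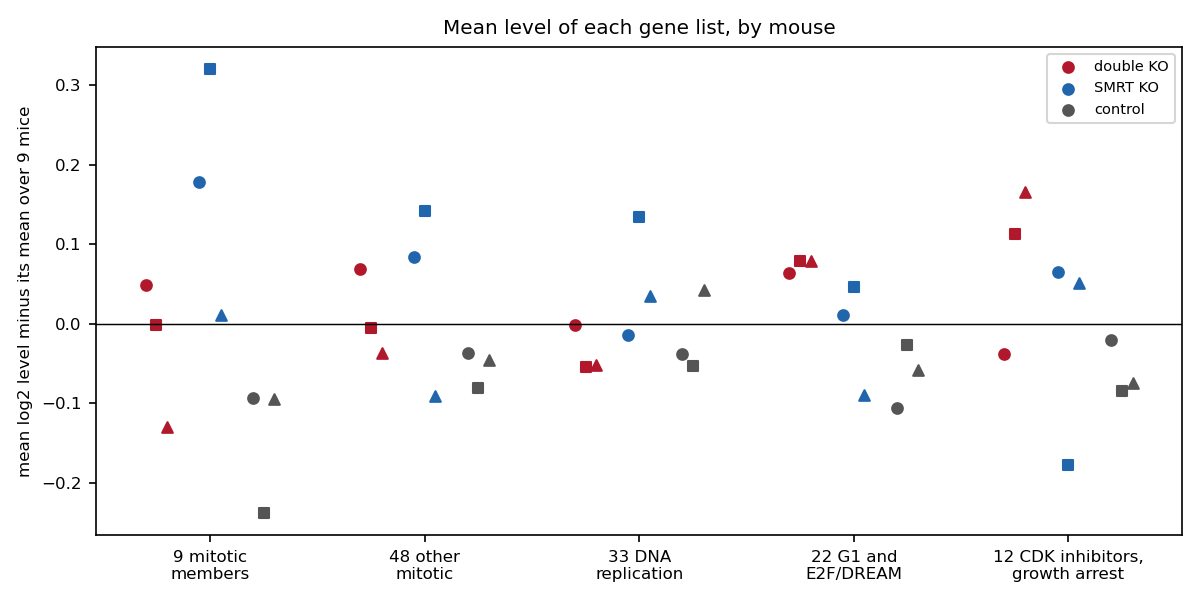
Mean log2 level of each gene list in each mouse, minus its mean over 9 mice. Colours are groups, and circles, squares and triangles are replicates 1, 2 and 3, whose numbers do not pair mice across groups. SMRT KO mouse 2 is the highest for the 9 mitotic genes, the 48 other mitotic genes and the 33 replication genes, and the lowest for the 12 growth arrest genes.

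Markers of other cell types were set beside these values, since blood and immune cells also divide. For Kupffer cells and macrophages, 13 of 13 markers averaged higher in SMRT KO than in control livers, against 50.4% of all genes. The median difference was 0.22, and none was called by limma, where 1 of 22180 genes was. An unadjusted limma p under 0.05 in the higher direction was found for 5, against 2.66% of all genes. Without overlap 4 were higher, against 3.80%. Against SMRT KO livers, 0 of the 13 double KO means were higher. In that comparison 6 had an unadjusted limma p under 0.05 in the lower direction, against 4.81% of all genes. The mean level of these markers was 8.30 to 8.48 in double KO livers, 8.58 to 8.77 in SMRT KO livers and 8.38 to 8.57 in control livers. SMRT KO mouse 3, the highest for these markers, was the lowest of its group for the 9 mitotic genes. Of 11 lymphocyte markers, 10 were higher in SMRT KO than in control livers, and their mean level was 5.65 to 5.69 in double KO livers, 5.66 to 5.85 in SMRT KO livers and 5.59 to 5.68 in control livers. All 6 erythroid markers measured, of 12 listed, were higher in SMRT KO livers, with mean levels of 6.13 to 6.19 in double KO livers, 6.24 to 6.27 in SMRT KO livers and 6.01 to 6.17 in control livers. Like the mean of the 9 mitotic genes, the erythroid mean was highest in SMRT KO mouse 2 and lowest in control mouse 2. Relative to the mean of all mice, it stood at 0.091 in SMRT KO mouse 2 and -0.17 in control mouse 2, where the mitotic mean stood at 0.32 and -0.24. The double KO mice had the same order in both, mouse 1 above 2 above 3, whereas SMRT KO mouse 3 was the lowest of its group for the mitotic genes and mouse 1 for the erythroid ones. Endothelial markers were higher in 8 of 10, with 9.05 to 9.33 in double KO livers, 9.20 to 9.32 in SMRT KO livers and 9.08 to 9.17 in control livers. Neutrophil markers were higher in 8 of 10, with 5.04 to 5.17 in double KO livers, 5.07 to 5.17 in SMRT KO livers and 5.03 to 5.09 in control livers. Stellate cell markers (5 of 11) and cholangiocyte markers (3 of 7) were not mostly higher in SMRT KO livers. On any array, at most 1 of the 10 neutrophil markers was above the receptor floor. Between 3 and 6 of the 11 lymphocyte markers and 3 or 4 of the 6 erythroid markers were above it. Levels near or under the floor limit what the counts of these 3 lists can show. RMA gives no level of 0, so no marker could be called absent. The part of these cells in the mitotic values was not tested.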

How the data were processed

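Liver RNA of 9 mice was measured on arrays, and the deposited values are log2 levels from RMA, which the authors ran according to the submitters' processing notes, with no version found there. Of 41345 probe sets, 23521 carry 1 gene symbol in the platform annotation, 1814 carry several and 16010 are not listed. Single-symbol probe sets, 1 per gene by highest mean, gave 22180 genes, with no filter on level. One limma 3.58.1 model (R 4.3.3; lmFit, contrasts.fit, eBayes; two-sided; 6 residual and 3.36 prior degrees of freedom) covered all 9 arrays without a block, and p-values were adjusted over 22180 genes in each of 3 comparisons. Calls required an adjusted p under 0.05. With 3 mice against 3, an exact permutation test cannot go below 0.1, so none was used. Arrays have no read depth, and their number limits the precision.

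Groups came from the sample titles, and 0 array columns were left over. Nothing in the labels ties replicate numbers across groups, and deviations of same-numbered mice correlated between -0.085 and 0.117. The mitotic genes and all gene lists were chosen with earlier results of these data known. All members were named. From each further list, the genes with the highest and the lowest difference and any called gene were named. Picking genes in this way favours groups that do not overlap, so that is no separate result for them. The other settings were 1 mean over probe sets, 2 filters on level, cyclic loess, median shifts, only the groups compared, an intensity trend, array weights, a replicate block and leaving out each mouse. The settings for genes of the further lists, and the correlations without SMRT KO mouse 2 were added after the data were seen. The limma step was tested on simulated data with changes larger than those of the mitotic genes. That test therefore does not show whether differences of their size would be called.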

Additional observations from a re-analysis of the deposited data

How the results depend on the processing

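None of the 9 mitotic genes was called in any of 18 other settings (lowest limma adjusted p 0.0841, with all 459 values counted), and 444 of these values kept their direction. Filters on level left 4 or 5 of the genes in the fit. In SMRT KO against control, the count of all genes called (1) was 2 among genes above the median level, 2 above the receptor percentile, 0 with only these groups in the fit and 2 with the replicate block; without each mouse in turn it was 0 to 23, the 23 being without control replicate 2. The median of the mitotic genes was 0.31 to 0.49 without each mouse, and Ccna2, whose difference is near 0, was reversed at -0.018 with cyclic loess, -0.00048 with arrays shifted to 1 median and -0.0053 with array weights, and lay between -0.0069 and 0.013 without each mouse. Likewise without 1 mouse Bub1 lay between -0.20 and 0.054, Cks2 between -0.12 and 0.026 and Prim1 between -0.18 and 0.063. In double KO against control, genes called (187) numbered 109 with only these groups, 285 with array weights and 61 to 179 without each mouse, lowest without double KO replicate 2. The median of the mitotic genes was 0.25 among the 5 above the receptor percentile. Without each mouse, Cdk1 lay between -0.15 and 0.081, Ccna2 between -0.0064 and 0.17 and Bub1 between -0.23 and 0.016. In double KO against SMRT KO, genes called (263) numbered 124 with only these groups and 101 to 234 without each mouse, and the median of the mitotic genes was -0.33 to -0.061; Mki67 lay between -0.33 and 0.12, Plk1 between -0.19 and 0.019, Bub1 between -0.10 and 0.043 and Ccna2 between -0.0065 and 0.17. Mcm10 was called there with the replicate block (limma adjusted p = 0.0200) and under both filters (0.0375 and 0.0414). The replicate numbers are not a known pairing; with them as a block, 195 genes were called between double KO and SMRT KO, 152 between double KO and control, and 2 between SMRT KO and control, with 0 mitotic members among them, and Gadd45b lost its call against SMRT KO livers (limma adjusted p = 0.0529). With only the compared groups in the fit, E2f3 (0.0583) lost its call against control, and Gadd45b (0.124) and Cdkn2c (0.0622) against SMRT KO livers. Among genes named from the further lists, some values that were not called moved by over 1.5 times without 1 mouse. In SMRT KO against control they did so for Pttg1 (0.21 to 0.52), Rbl2 (-0.31 to -0.093), Gadd45g (0.12 to 0.54) and Ccnd1 (lowest 0.16). They did so for E2f8 (lowest 0.58), Rrm2 (lowest 0.24), Ccnd2 (lowest -0.26) and Wee1 (-0.58 to -0.057) in double KO against control. In double KO against SMRT KO they did so for Ect2 (lowest 0.23), E2f8 (lowest 0.65), Rrm2 (highest 0.38) and Gadd45g (-0.58 to -0.058). The cause was not tested. Levels of Ccna2, Birc5, Bub1 and Top2a, and of Plk1 in control livers, near or under the receptor floor limit what their values can show.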
